A study of Mus musculus with 15 samples.

Results

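The podocyte is the epithelial cell that wraps the glomerular capillaries and completes the kidney filter. The 8 genes described here mark its identity and are 8 of the 46517 genes in the RNA-seq files, taken by name: Nphs1, Podxl, Synpo, Wt1, Ptpro, Cd2ap, Plce1 and Magi2. All 8 passed the filter on low counts. Around them lay 302 of the 360390 CpG positions read by reduced representation bisulfite sequencing (RRBS), counted in each gene and within 2 kb of it. A position was used where all 9 RRBS samples had 10 or more calls.

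The mice were of strain C57BL/6. The control genotype was Dnmt1 f/f at postnatal day 0 (P0), so controls carried the floxed alleles as well. The knockout (KO) genotype was Six2Cre Dnmt1 f/f at P0, in which Cre is driven by Six2, a gene of nephron progenitors, so kidney cells outside that lineage are not its target. Wild-type mice of 6 weeks formed the adult group. RRBS was run on 3 samples of each group and poly(A) RNA-seq on 3 controls and 3 KO samples. The source label names Six2+ cells, while the protocol text describes DNA taken from entire kidneys, and markers of other lineages were present in all RNA samples. Nothing says which samples came from separate animals or whether DNA and RNA came from the same ones, so p-values measure only the spread between these samples, which may be technical.

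Podocytes arise from the nephron progenitors that express Six2. Their interdigitating foot processes are joined by the slit diaphragm, an adhesion complex built on nephrin (Nphs1) that is tied to the actin cytoskeleton by adaptor proteins. Dnmt1 copies CpG methylation onto the new DNA strand at replication, and dividing cells that lack it lose methylation. Mutations in several of the 8 genes, among them NPHS1, WT1, CD2AP, PLCE1, PTPRO and MAGI2, cause nephrotic syndrome in people.

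Gene counts per RNA library ranged from 33657577 to 34102567 in controls and from 26773937 to 31541317 in KO. RRBS libraries held 36811631 to 88765177 calls in controls, 18424875 to 48915970 in KO and 39114862 to 74768086 in adults, and KO 3 was the shallowest. Dnmt1 itself was lower in KO (log2 fold change -0.74, SE 0.12, edgeR adjusted p = 0.00577). Control 3 stood apart from controls 1 and 2 in RNA. The summed level of 6 proximal tubule markers was 3741 CPM in it (CPM, read counts scaled by library size with TMM), against 1697 and 1448, and that of 6 nephron progenitor markers was 133.7, against 233.2 and 291.5. Calls of the 8 genes and counts of markers of other cells that moved without it are given both ways. Counts of the podocyte lists are given both ways in part.

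Expression of the 8 genes was compared between KO and control at P0. Of the 8 genes, 5 were lower in KO at an edgeR adjusted p under 0.05: Nphs1, Ptpro, Podxl, Synpo and Wt1. None was higher. Over all 18132 genes tested 8.23% were lower and 6.36% were higher. The median log2 fold change was -0.90 over the 8 genes and -0.0007 over all genes tested. The 8 genes were chosen with earlier results of these data known, so these shares and medians describe them and are no test of the set. In bulk samples fewer podocytes, less RNA per podocyte and a change in other cells that express the same genes cannot be told apart.

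**Figure D1:**
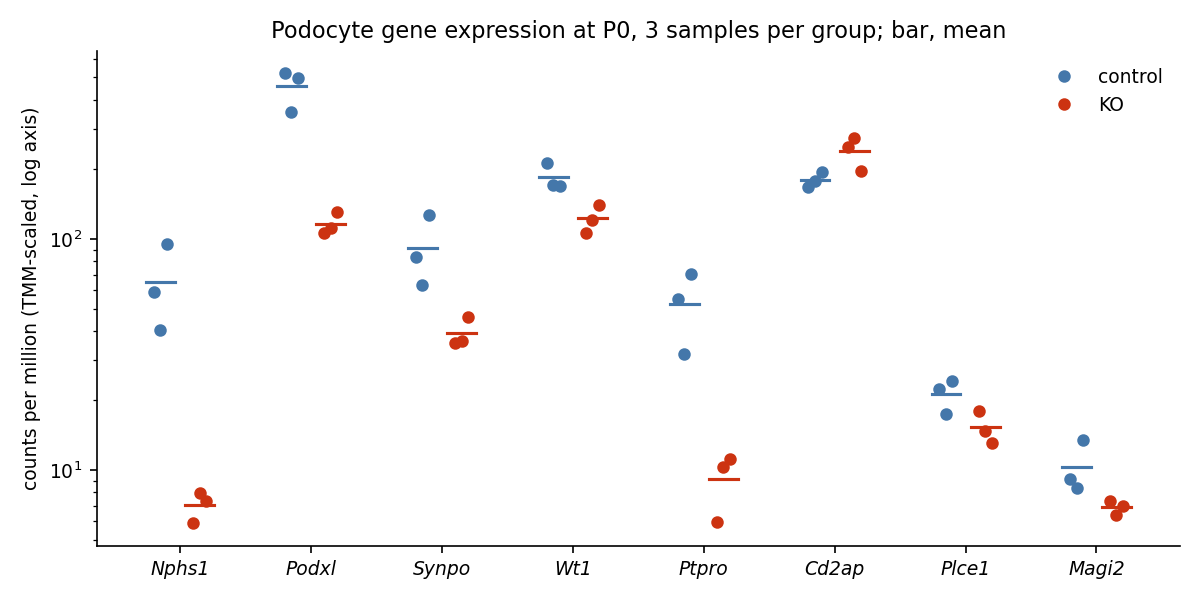
Expression of the 8 podocyte genes in each P0 RNA-seq sample, in TMM-scaled CPM on a log axis, with 3 control (blue) and 3 KO (red) samples and a bar at each group mean. KO points lie below all controls for Nphs1, Podxl, Synpo, Wt1, Ptpro and Magi2, and above them for Cd2ap, while for Plce1 only KO 1 lies among the controls.

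Nphs1 (ENSMUSG00000006649.15) encodes nephrin, the adhesion protein that spans the slit between foot processes. It measured 58.9, 40.4 and 95.2 CPM in controls 1 to 3 and 5.89, 7.97 and 7.33 CPM in KO 1 to 3. The lowest control was far above the highest KO sample. Nphs1 fell by 3.20 on the log2 scale (SE 0.31, edgeR adjusted p = 0.00055), which left 10.9% of the control level. Its fold change ranged from -3.45 to -2.82 when single libraries were left out.

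Podxl (ENSMUSG00000025608.9) encodes podocalyxin, the negatively charged sialomucin that coats the apical face of foot processes. Its level was 521, 355 and 496 CPM in controls and 106, 112 and 131 CPM in KO. The KO samples sat close together, all under every control. Podxl fell by 1.98 (log2, SE 0.18, edgeR adjusted p = 0.00039). Ptpro (ENSMUSG00000030223.13) encodes GLEPP1, a receptor tyrosine phosphatase of the same apical membrane. It stood at 54.8, 31.7 and 70.9 CPM in controls and at 5.95, 10.3 and 11.1 CPM in KO, again without overlap. Ptpro fell by 2.53 (log2, SE 0.34, edgeR adjusted p = 0.00205). Both calls held with each library left out in turn.

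Synpo (ENSMUSG00000043079.16) encodes synaptopodin, which bundles actin in the foot processes. It measured 83.9, 63.2 and 126 CPM in controls and 35.4, 36.3 and 45.8 CPM in KO, with control 3 highest. Synpo fell by 1.22 (log2, SE 0.24, edgeR adjusted p = 0.0127). This call was lost without KO 1 (adjusted p = 0.0657) and without KO 2 (adjusted p = 0.0588), with log2 fold changes of -1.15 and -1.18. Without control 3 the fold change was smaller, at -0.91, and the call held (edgeR adjusted p = 0.00335).

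Wt1 (ENSMUSG00000016458.12) encodes a zinc finger transcription factor that is already on in nephron progenitors and stays on in podocytes. Its values were 213, 171 and 170 CPM in controls and 106, 121 and 141 CPM in KO. The groups did not overlap, but the gap between them was narrow. Wt1 fell by 0.59 (log2, SE 0.15, edgeR adjusted p = 0.0324), to 66.5% of control. The call did not hold without control 1 (adjusted p = 0.0923), without KO 1 (0.147) or without KO 2 (0.117).

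The other 3 genes did not pass the test. Cd2ap (ENSMUSG00000061665.6) encodes an adaptor that links nephrin to actin and is made in many cell types. It measured 168, 178 and 195 CPM in controls and 250.2, 275 and 198 CPM in KO, so every KO sample was above every control, KO 3 only just. The fold change on the log2 scale came to 0.42 (SE 0.15, edgeR adjusted p = 0.104). Without control 3 Cd2ap was called higher, at 0.48 (adjusted p = 0.0338), and limma voom with quality weights also called it, at 0.51 (adjusted p = 0.02). Plce1 (ENSMUSG00000024998.16), a phospholipase C of podocyte signalling, had 22.5, 17.5 and 24.2 CPM in controls and 17.9, 14.8 and 13.2 CPM in KO. KO 1 lay above control 2, at a log2 fold change of -0.48 (SE 0.19, edgeR adjusted p = 0.129). Magi2 (ENSMUSG00000040003.16), a scaffold protein at the slit diaphragm, had 9.14, 8.35 and 13.5 CPM in controls and 7.35, 6.36 and 6.99 CPM in KO. All KO samples were below the controls, at a log2 fold change of -0.58 (SE 0.23, edgeR adjusted p = 0.138).

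Set side by side, Magi2 and Wt1 had nearly the same log2 fold change (-0.58 and -0.59), but the SE was 0.23 for Magi2 and 0.15 for Wt1, and Wt1 alone passed. Groups that did not overlap were frequent among all genes: every KO sample was below every control for 17.8% of genes tested and above for 16.5%. By that count alone 6 of the 8 genes were lower and 1 was higher.

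The genes also changed against each other within libraries. Each gene's count was divided by that of Wt1 in the same library, which removes library scaling. The log2 ratio of Nphs1 to Wt1 was -1.85, -2.08 and -0.84 in controls and -4.16, -3.91 and -4.25 in KO, a difference of -2.52. That of Ptpro differed by -1.90, that of Podxl by -1.37 and that of Synpo by -0.58, each with all KO samples below all controls. For Synpo the ratio was -1.341, -1.435 and -0.427 in controls and -1.588, -1.732 and -1.619 in KO, so control 3 lay farthest from KO. The ratio of Cd2ap was higher in every KO sample, with a difference of 0.996. Each of these 5 had an exact two-sided permutation p of 0.1, the smallest that 3 against 3 samples allow. Plce1 and Magi2 differed from Wt1 by 0.11 and 0.05 with overlapping groups (exact permutation p 0.7 and 0.8). In all, 7 ratios were computed. In these libraries Cd2ap was thus on the other side of Wt1 from Nphs1, Ptpro, Podxl and Synpo.

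Annotated genes that overlap the 8 or lie within 2 kb of them were looked at as well. Kirrel2, which encodes a nephrin relative and lies 692 bases from Nphs1, had 1.16, 1.04 and 2.91 CPM in controls and 0.280, 0.525 and 0.304 CPM in KO. It fell by 2.19 (log2, SE 0.52, edgeR adjusted p = 0.0252). Wt1os, a long noncoding RNA 19 bases from Wt1, had 15.2, 18.9 and 16.5 CPM in controls and 10.03, 9.64 and 9.73 CPM in KO. It fell by 0.78 (log2, SE 0.16, edgeR adjusted p = 0.0134). Nphs1os, inside the Nphs1 bounds, was not tested, with 0, 5 and 6 reads in the controls against 0, 0 and 1 in KO. The lncRNA 4921504A21Rik, at the low-coordinate end of Magi2, had a log2 fold change of -1.10 (SE 0.59, edgeR adjusted p = 0.276). The strand setting of the counting is not given in the sources used here, so reads of a gene and an overlapping or antisense partner cannot be told apart.

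Other podocyte genes were followed in 5 lists of 53 genes in all, every one tested. These lists too were chosen with earlier results of these data known, so their counts are descriptive. Of these 53, 15 were lower in KO, 2 were higher and 36 did not pass, with a median log2 fold change of -0.26. Over all genes tested 8.23% were lower and 6.36% were higher. Leaving out control 3 gave 23 lower genes, leaving out KO 1 gave 8 and leaving out KO 3 gave 9. The higher count ranged from 1 to 3. Lower calls over all genes tested moved the same way, from 1493 to 2561, 701 and 790 in the same order.

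The 14 genes of the slit diaphragm and its signalling partners had a median of 0.0004, and not all of their calls are reported here. Kirrel3, another nephrin relative, had 3.05, 3.56 and 3.37 CPM in controls and 12.3, 13.7 and 8.78 CPM in KO, a log2 fold change of 1.80 (SE 0.23, edgeR adjusted p = 0.0017). Nck1, an adaptor between phosphorylated nephrin and actin, was higher by 0.61 (edgeR adjusted p = 0.0141). Kirrel2, given above, belongs to this list and was lower.

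Of 12 genes of the podocyte actin cytoskeleton 4 were lower and 0 higher (6 and 0 without control 3), with a median of -0.39. Rhpn1 fell by 1.71 (edgeR adjusted p = 0.00039), Slc9a3r2, which links podocalyxin to ezrin, by 0.74 (0.00259) and Arhgap24, a Rac GTPase-activating protein, by 0.93 (0.0107). The fourth was Clic5. The 6 transcription factors had a median of -0.24, and not all of their calls are reported here. Lmx1b and Foxc1, factors of podocyte development, had log2 fold changes of -0.27 each (adjusted p = 0.353 and 0.452).

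Of 11 matrix, adhesion and secreted factors 4 were lower and 0 higher (5 and 0 without control 3), with a median of -0.34. Sema3g, a secreted semaphorin of podocytes, fell by 1.39 (edgeR adjusted p = 0.00064), Col4a3, a chain of the mature glomerular basement membrane collagen, by 1.69 (0.0157) and Npnt, a matrix ligand of integrins, by 0.63 (0.0198). Col4a4, the partner chain of Col4a3, was the fourth. Among 10 other podocyte-enriched genes 4 were lower and 0 higher (7 and 0 without control 3), with a median of -0.41. Enpep, aminopeptidase A, fell by 1.14 (edgeR adjusted p = 0.00178), Thsd7a by 1.13 (0.00486) and Htra1 by 1.19 (0.00955), and Tdrd5 was the fourth.

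**Figure D2:**
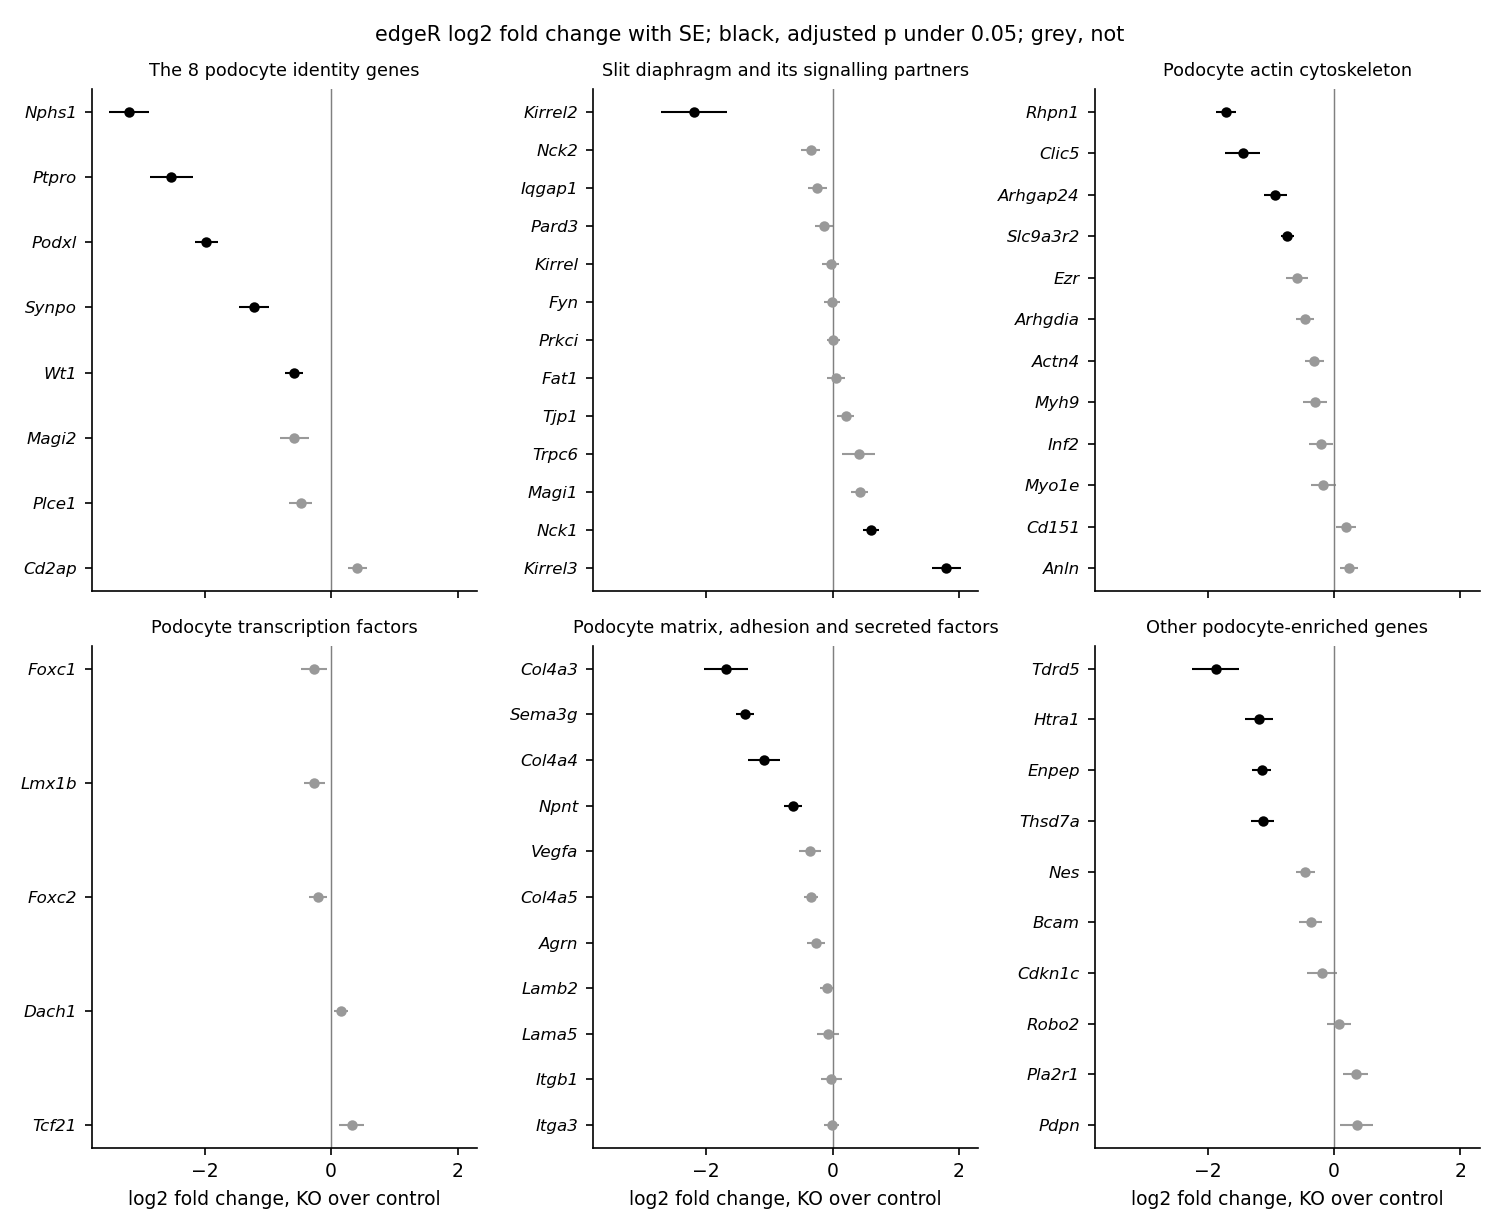
log2 fold change of KO over control with its standard error for the 8 podocyte genes and for genes of 5 lists of other podocyte genes, 3 against 3 samples, with black points at an edgeR adjusted p under 0.05 and grey points above it. Nphs1, Ptpro, Kirrel2 and Podxl lie farthest to the left, Kirrel3 farthest to the right, and most genes of the slit diaphragm list lie near 0.

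Markers of other cells moved in the same libraries. Endothelial markers were lower: 4 of 8 passed and 0 were higher, with summed levels of 1104, 892 and 786 CPM in controls and 536, 549 and 659 CPM in KO. Without control 3 all 8 passed. Of 6 mesangial and mural markers 2 were lower and 1 higher (3 and 1 without control 3), with sums of 1205 to 1909 CPM in controls and 661 to 1050 CPM in KO. All 6 proximal tubule markers were lower, with sums of 1448 to 3741 against 304 to 359 CPM, as were 5 of 6 thick limb and distal tubule markers (1216 to 1609 against 383 to 452 CPM), while the sixth, Calb1, was higher by 0.56 (log2, edgeR adjusted p = 0.0274). Parietal epithelium markers, of Bowman's capsule, were on the other side, with Cldn1 and Akap12 higher among 3, with sums of 473 to 640 against 769 to 853 CPM. Nephron progenitor markers overlapped between groups (133.7 to 291.5 against 220 to 266.5 CPM, 1 lower and 2 higher of 6, or 2 and 2 without control 3), as did early nephron markers (866 to 953 against 804 to 868 CPM, 1 lower and 0 higher of 6, or 2 and 1 without control 3). Of 6 ureteric markers 1 was higher, of 6 stromal markers 3, of 6 leukocyte markers 2, and of 5 erythroid and 2 adrenal markers tested 0 passed the edgeR test. Without control 3, 2 ureteric markers were lower and 1 higher, 4 stromal and 3 leukocyte markers were higher, 3 of 5 erythroid markers were lower and 1 of 2 adrenal markers was higher. Calls over all genes rose as well without control 3, from 1493 to 2561 lower and from 1153 to 2512 higher. The adrenal marker Cyp11b1 was at 0 in 5 of 6 libraries. The part of these shifts in the podocyte genes was not tested.

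The profile of Nphs1 over the 6 RNA samples was compared with that of 13074 genes, as a description with no test, since the samples form 2 groups. The genes most like it, by Pearson's r of log2 CPM, were Rhcg (0.9995), Snapc5 (0.9988), Chchd10 (0.9984), Pcbd1 (0.9983) and Lrp2 (0.9980). This r leaves out the size of a change. In the same order their log2 fold changes were -1.50, -0.39, -1.65, -1.46 and -2.22, against -3.20 for Nphs1, and Snapc5 did not pass (edgeR adjusted p = 0.101). In all, 1364 genes reached an r of 0.9, so a profile of that shape was common. Lrp2 encodes megalin of the proximal tubule and Rhcg an ammonia transporter of the collecting duct. Among the 8 genes, Ptpro (0.9868), Podxl (0.9855) and Synpo (0.9588) were nearest to Nphs1, and Cd2ap was at -0.7370.

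Methylation was then compared at the same 8 genes. RRBS reads cytosines near MspI cuts (CCGG), and each percent is the share of calls that were methylated. A gene's value is the mean over its positions used. For all 8 genes the highest KO sample was below the lowest control. The same was true of 73.2% of the 12870 autosomal protein-coding genes with at least 5 positions, while 0.684% had every KO sample above. In the methylation results below, all genes means these genes. Every exact permutation p was 0.1, the smallest possible here.

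**Figure D3:**
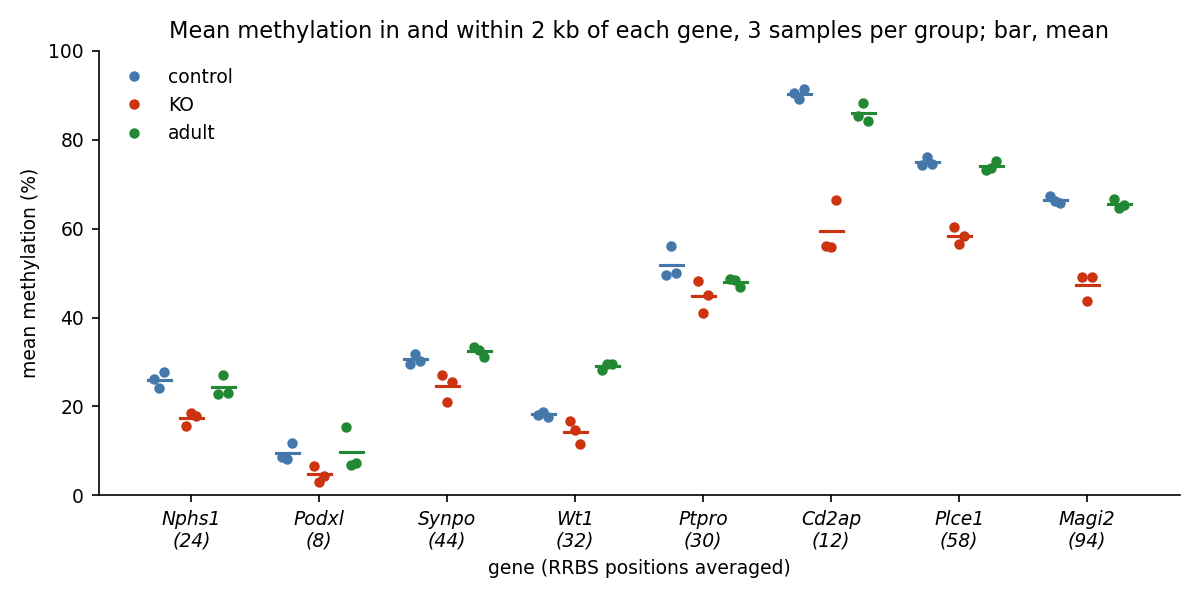
Mean methylation in and within 2 kb of each podocyte gene, in percent, for 3 control (blue), 3 KO (red) and 3 adult (green) RRBS samples, with a bar at each group mean and the number of positions under each name. KO points lie below the controls for all 8 genes, by 30.8 points at Cd2ap and 3.87 points at Wt1, and adults lie above the controls at Wt1.

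The difference in percentage points was largest at Cd2ap. Its 12 positions averaged 90.4%, 89.1% and 91.3% in controls, 56.1%, 55.8% and 66.5% in KO and 85.3%, 88.3% and 84.3% in adults. The KO minus control difference of -30.8 points lay at the 0.971 percentile of all genes, counted from the largest decrease. With a minimum of 5 calls, on 31 positions, it was -18.3 points. Magi2 (94 positions) went from 66.5% ± 0.762 to 47.3% ± 3.11 and Plce1 (58 positions) from 75.01% ± 0.907 to 58.4% ± 1.84 (SD, n = 3 each). On the positions used, these 3 genes had the highest control means of the 8, and their RNA did not pass the test. The Cd2ap positions used include none of its promoter window, described below. A relation between methylation level and RNA was not tested.

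At the 5 genes with lower RNA the differences in points were smaller, but with a minimum of 5 calls Ptpro (-14.1) and Plce1 (-13.9) changed places. Nphs1 (24 positions) averaged 26.1%, 24.2% and 27.7% in controls and 15.7%, 18.5% and 17.8% in KO, a difference of -8.68 points. Ptpro (30 positions) differed by -7.13 points, from 51.9% ± 3.65 to 44.8% ± 3.53, and Synpo (44 positions) by -6.09 points, from 30.6% ± 1.21 to 24.5% ± 3.04 (SD, n = 3 each). Podxl (8 positions) differed by -4.88 points, from 9.58% ± 1.90 to 4.70% ± 1.73, and Wt1 (32 positions) by -3.87 points, from 18.2% ± 0.586 to 14.3% ± 2.64 (SD, n = 3 each). In points all 5 genes lay between the 52.7 and the 72 percentile of all genes, counted from the largest decrease. The control level bounds a loss in points. As a share of the control level Podxl lost 51% and Nphs1 33.4%, against 34.1% at Cd2ap and a median of 26% over 12230 genes (upper quartile 31%). The Podxl value rests largely on 1 of its 8 positions, which went from 51.5% in controls to 22.8% in KO. Its other 7 positions averaged 3.60% in controls and 2.11% in KO. Synpo lost 19.9%, Wt1 21.2% and Ptpro 13.7%. A gene-wide mean depends on which of its positions RRBS covered. At the 117 positions of the 8 genes with an adult level of at least 80%, methylation went from 91.1% to 68.0%, against 89.8% to 66.1% at all autosomal positions of that class.

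The Nphs1 promoter was covered. RefSeq promoter windows (250 bases before to 50 after a start, build GRCm38.p6) were found for 5 of the 8 genes: Nphs1, Ptpro, Cd2ap, Plce1 and Magi2. That of Nphs1, chr7:30459808-30460107 on the + strand, is shown because it is the promoter of the gene with the largest fall in RNA and its methylation was measured. It holds 6 CpG, near the median of 7 over 32851 promoters. The window lies inside the annotated gene, which begins at 30458207. From that gene start the nearest positions used were at -1.090 and 1.480 kb. Capitals mark the 3 CpG with 10 or more calls in each of the 9 samples.
Nphs1 promoter: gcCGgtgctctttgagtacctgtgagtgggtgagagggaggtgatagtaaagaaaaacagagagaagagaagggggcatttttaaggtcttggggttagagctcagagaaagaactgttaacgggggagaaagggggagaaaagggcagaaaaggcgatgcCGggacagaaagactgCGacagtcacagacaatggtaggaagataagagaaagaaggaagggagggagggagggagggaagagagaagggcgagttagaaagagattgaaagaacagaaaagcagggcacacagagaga

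All 3 of these positions averaged lower in KO. At 30459810 (position -248 from the start) methylation was 26.5%, 34.5% and 45.2% in controls, 13%, 22.3% and 23.1% in KO and 27.9%, 29.8% and 11.7% in adults. At 30459969 it was 51.1%, 39% and 45.1% in controls, 21%, 38.4% and 31.4% in KO and 41.5%, 41.7% and 35.8% in adults. At 30459985 it was 53.7%, 43.3% and 25.8% in controls, 28.2%, 28.1% and 16.7% in KO and 38.5%, 39.6% and 50.6% in adults. The first position passed the single-position test (quasi-binomial model, adjusted p = 0.0174). KO was below every control at the first 2 positions and overlapped the controls at the last. Together with 1 position just upstream they form a block at chr7:30459687-30459985, of 36.3% ± 3.12 in controls, 23.1% ± 7.14 in KO and 27.7% ± 2.15 in adults (SD, n = 3 each). KO and adult samples were each below all controls there (exact permutation p 0.1 for both). The block begins 1480 bases into the annotated span of Nphs1. Its KO difference lay at the 54.6 percentile of all such blocks, described below, counted from the largest decrease. Nphs1 RNA was lower in KO too, and a link between RNA and methylation was not tested.

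The promoter of Cd2ap, chr17:42876375-42876674 on the - strand, is shown as the contrast, a CpG island with 41 CpG. Capitals mark the 34 CpG with any call in any sample.
Cd2ap promoter: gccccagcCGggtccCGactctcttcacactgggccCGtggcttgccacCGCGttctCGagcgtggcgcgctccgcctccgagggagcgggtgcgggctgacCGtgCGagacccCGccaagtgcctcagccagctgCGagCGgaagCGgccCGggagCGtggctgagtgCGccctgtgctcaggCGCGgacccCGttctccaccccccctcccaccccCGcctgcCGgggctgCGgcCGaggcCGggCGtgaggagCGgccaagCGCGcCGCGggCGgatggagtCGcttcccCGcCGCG

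No position there reached 10 calls in all 9 samples, so all calls in the window were summed, 90 to 856 per sample. Methylation was 0%, 0.701% and 1.68% in controls, 0.538%, 1.97% and 0% in KO and 0.521%, 0.595% and 0.398% in adults. The island was thus nearly unmethylated in every group, and the decrease at Cd2ap came from positions elsewhere in the gene. The first Magi2 promoter, with 29 CpG, was likewise low, at 1.60% to 6.41% in controls, 0% to 1.43% in KO and 0% to 1.41% in adults, on 41 to 284 calls. No position fell in the promoter windows of Ptpro (5 CpG) and Plce1 (8 CpG). The Plce1 window begins at chr19:38523947, inside the annotated + strand gene, which begins at 38481034. Positions near that gene start were covered and are given below among the blocks low in controls.

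Letter patterns were searched in the promoter windows on both strands. The MspI site CCGG occurred 2 times in the Nphs1 window and 4 times in that of Cd2ap, and 52.8% of all 300-base windows hold it. The WT1 consensus of 10 bases (0.0548% of all windows), the GC-rich pattern GCGGGGGCG of WT1 and EGR factors (2.91%) and the forkhead pattern GTAAACA (3.65%) were in none of the windows of the 5 genes. The E-box CAGCTG (16.3%) occurred in the Cd2ap window and the first Magi2 window, and the homeodomain pattern TAATTA (5.29%) in the second Magi2 window. A match or its absence describes these letters only.

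Positions were next grouped into blocks of at least 3 with gaps of up to 500 bases. The 8 genes held 42 blocks. In 23 of them every KO sample was below every control, in 1 every KO sample was above, and 18 overlapped. Over all 48582 blocks 54.3% were lower and 1.38% higher, so the share among the podocyte genes was near that of all blocks.

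**Figure D4:**
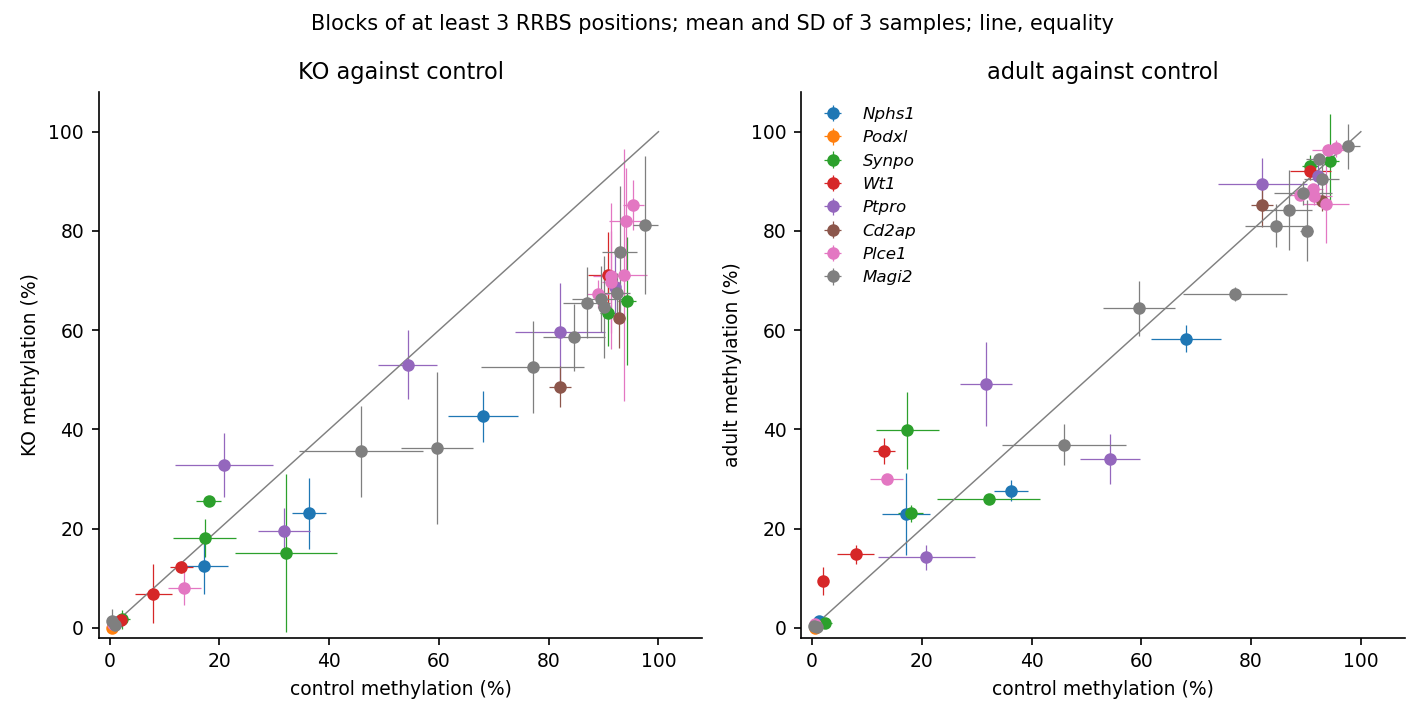
Mean methylation of the 42 blocks of the 8 podocyte genes in KO (left) and adult (right) samples against controls, in percent, with bars of 1 SD over 3 samples and a line of equality. Highly methylated blocks lie below the line in KO and nearer to it in adults, where 1 block each of Cd2ap, Plce1 and Magi2 had all adults below all controls, while several Wt1, Synpo and Plce1 blocks under 20% in controls lie above it in adults.

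Blocks with high methylation in controls are shown by examples from gene bodies. At Cd2ap, chr17:42844269-42844752 (4 positions) measured 80.2%, 81.7% and 84.2% in controls, 48.9%, 44.4% and 52.6% in KO and 88.1%, 87.1% and 80.2% in adults. KO was below all controls, while adults overlapped them. Near its high-coordinate end Magi2 had contrasting neighbours. The block chr5:20703839-20704053 measured 89.5% ± 5.25 in controls, 66.3% ± 6.72 in KO and 87.7% ± 2.42 in adults (SD, n = 3 each). Less than 2 kb before it, the 13 positions of chr5:20701771-20702288 measured 0.974% in controls, 0.577% in KO and 0.0901% in adults.

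Blocks low in controls had little to lose. The 9 positions of chr7:30456940-30457117, in the flank of Nphs1 and inside Kirrel2, were at 1.25% in controls, 1.28% in KO and 1.41% in adults. The 7 positions at the low-coordinate end of Plce1 (chr19:38481273-38481682) were at 0.558%, 0.886% and 0.795%, in the same order of groups. At the high-coordinate end of Podxl 3 positions (chr6:31563339-31563389) were at 0.517% in controls and at 0% in KO and adults. Each sample had 39 to 130 calls there.

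By group mean 6 of the 42 blocks were higher in KO, and the 2 largest differences among them are given here. At Synpo, the block chr18:60652110-60652924 (7 positions) measured 15.8%, 18% and 20.3% in controls, 25.8%, 25.4% and 25.5% in KO and 21.3%, 23.4% and 24.8% in adults. KO and adult samples were both above all controls (exact permutation p 0.1 for both). Inside Ptpro, the 11 positions of chr6:137295336-137295635 measured 14.3%, 30.9% and 17.3% in controls, 39.9%, 31% and 27.3% in KO and 16.7%, 14.1% and 11.7% in adults. The groups overlapped there, with KO 3 below control 2 (exact permutation p 0.2).

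Single positions were tested with the quasi-binomial model, and called where the adjusted p was under 0.05 and the groups differed by 10 points or more. Of 320 positions of the 8 genes tested between KO and control, 119 were lower and 3 higher, against 35.7% lower and 0.147% higher over all 380162 positions tested. By gene, 17 of 19 positions were lower at Cd2ap, 51 of 100 at Magi2 and 26 of 59 at Plce1. The counts were 9 of 32 at Ptpro, 8 of 46 at Synpo, 5 of 24 at Nphs1, 2 of 32 at Wt1 and 1 of 8 at Podxl. The 3 higher positions were 1 of Synpo and 2 of Ptpro, in the blocks just described, and none of the 3 was called without KO 1. At the Ptpro position 137295454 methylation was 17.5%, 30.3% and 38.6% in controls and 63.3%, 52% and 68.4% in KO (adjusted p = 0.0142).

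The largest single difference in each gene was a decrease. At Magi2 position 20612087 methylation was 93.3%, 93.9% and 87.8% in controls and 39.3%, 8.33% and 27.3% in KO, on 11 to 66 calls (adjusted p = 0.00042). The largest differences were -54.6 points at Plce1 (38696768), -48.3 at Synpo (60612007), -40.1 at Ptpro (137398756) and -38.9 at Cd2ap (42844269). They were -36.4 points at Wt1 (105151111), -31.3 at Nphs1 (30490149, beyond its high-coordinate end) and -28.6 at Podxl (31527234). In each of these 8 positions every KO sample was below every control. They were picked as the largest called differences in these same samples. The separation is therefore no further support, and the sizes may be too large.

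Adults were compared with P0 controls to see how the same positions stood in the mature kidney. Age, the floxed allele and cell makeup differ together between these groups and cannot be told apart. Of the 8 genes, Wt1 had all adults above all controls, Ptpro and Cd2ap had all adults below, and 5 overlapped. Among all genes 13.9% were higher and 25% lower. Adult differences were -4.29 points at Cd2ap, -1.06 at Plce1 and -0.934 at Magi2, each smaller than the KO difference there. Weighted by calls they were -2.34, -7.35 and -5.20.

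Wt1 was the exception, with 18.1%, 18.8% and 17.7% in controls, 16.8%, 14.6% and 11.6% in KO and 28.1%, 29.5% and 29.5% in adults. The difference of 10.8 points between adults and controls lay at the 98.1 percentile of all genes (exact permutation p 0.1). It was 6.56 points with a minimum of 5 calls (65 positions) and 4.87 with only the 6 control and adult samples required to have calls (76 positions), each with all adults above all controls. The blocks that carried it were 3. In chr2:105130418-105131246, which begins 3889 bases into the gene from its low-coordinate end, 11 positions measured 11.6%, 15.4% and 12.2% in controls, 13.6%, 12.2% and 11.1% in KO and 35.8%, 38.3% and 33% in adults. Adults were far above every control and KO stayed within the control range or just under it. In chr2:105128365-105128565 adults were at 9.49% ± 2.87 against 2.05% ± 0.718 in controls, and in chr2:105134531-105134583 at 14.8% ± 1.97 against 7.95% ± 3.33 (SD, n = 3 each). Adults were above every control in all 3. Nearer the high-coordinate end, at chr2:105169772-105169971, the pattern was the other one: 90.8% in controls, 71.1% in KO and 92.1% in adults.

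**Figure D5:**
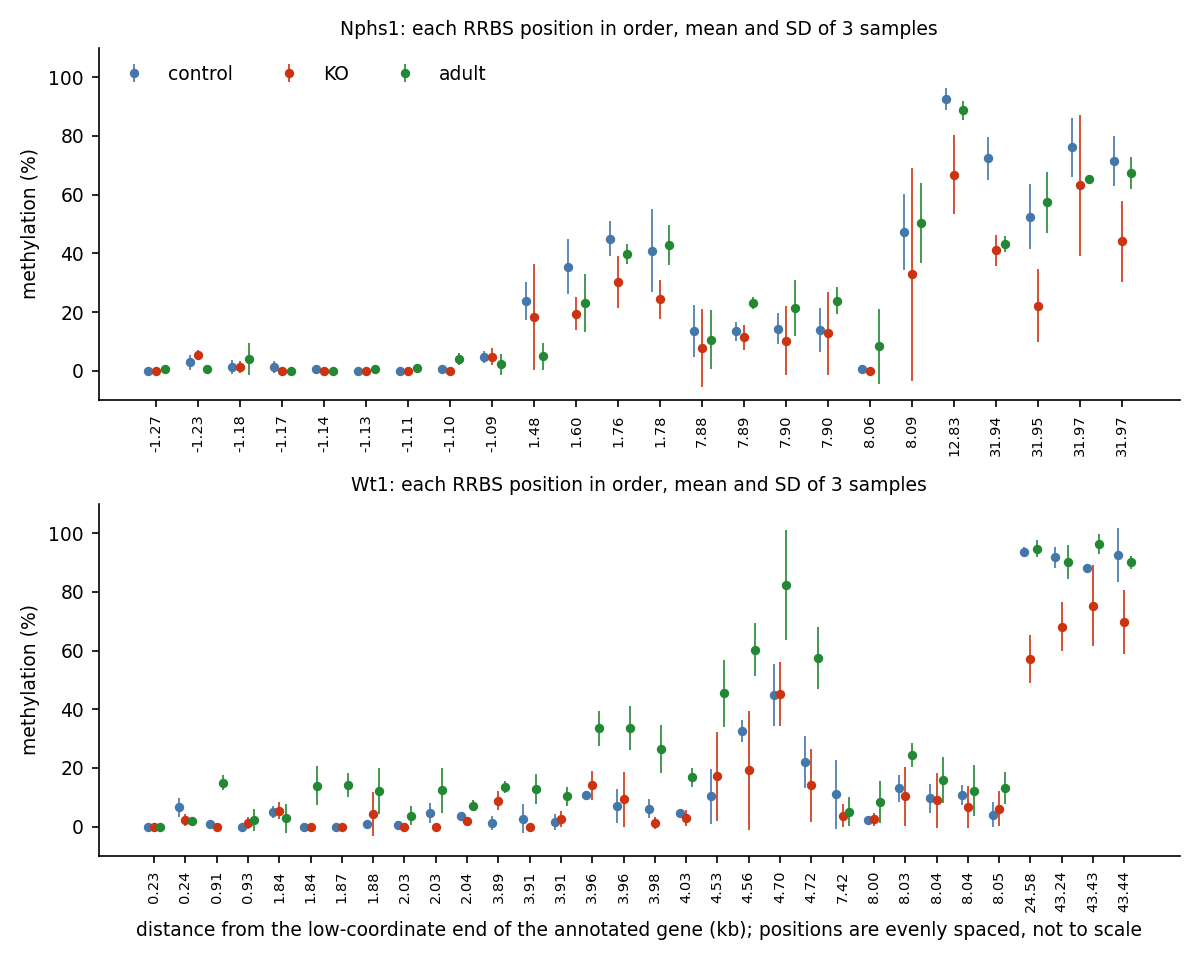
Methylation of each covered position of Nphs1 (top) and Wt1 (bottom), in percent, mean and SD of 3 control (blue), 3 KO (red) and 3 adult (green) samples, in order of distance from the low-coordinate end of the gene in kb, evenly spaced. At Wt1 adult means lie above both P0 groups at many positions low in controls, while KO means lie lower at the 4 most methylated positions on the right.

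Of the 42 blocks, 7 were higher in all adults than in all controls and 6 were lower, against 13.4% and 16.8% of all blocks. Besides the 3 Wt1 blocks, the higher ones included chr18:60610166-60610209 in Synpo, at 39.8% ± 7.73 in adults, 18.2% ± 3.85 in KO and 17.3% ± 5.76 in controls (SD, n = 3 each). In Plce1, chr19:38486433-38486488 was at 29.98% ± 1.01 in adults, 7.97% ± 3.37 in KO and 13.6% ± 3.05 in controls (SD, n = 3 each). The lower ones included chr6:137287762-137287887 in Ptpro, at 34.0% ± 5.05 in adults, 53.1% ± 7.01 in KO and 54.3% ± 5.44 in controls (SD, n = 3 each). In these 3 blocks the adults stood apart from all controls, while KO overlapped the controls.

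At single positions, 15 of 606 were higher in adults and 6 lower, against 1.85% and 1.90% of all 704580 positions tested. Wt1 held 6 of the higher positions and Synpo 5. The largest adult difference at Wt1 was at 105128945, from 11.8% ± 10.2 to 52.5% ± 18.1 (SD, n = 3 each, adjusted p = 0.0313 in the quasi-binomial model). At Nphs1 none of 48 positions passed in either direction. The higher count of 15 fell to 9 without control 2 or control 3, and to 8 without adult 2 or adult 3. The lower count of 6 fell to 3 without adult 2 or adult 3.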

How the data were processed

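The authors counted reads per gene, and the deposited RNA-seq files hold raw counts. The deposited RRBS files hold a methylation percent and methylated and unmethylated call counts per position. The submitters' processing notes name Trim Galore, Bismark, STAR 2.4.1d and HTSeq 0.6.1 and builds mm10 and GRCm38. Lines that name no gene, 22.9% to 35.8% of reads per RNA library, were left out of the library totals.

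The genes and the lists were chosen with earlier results of these data known. Gene spans are from RefSeq GRCm38.p6, which here gives no strand for Podxl, Synpo and Wt1.

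Counts were tested with edgeR 4.0.16 (quasi-likelihood, TMM, filterByExpr, Benjamini-Hochberg over 18132 genes) in R 4.3.3. Positions were tested with a quasi-binomial model with moderated dispersion, adjusted over all positions, in Python 3.11.15 (numpy 2.4.6, scipy 1.17.1). Gene and block means were compared with two-sided exact permutation tests. Counting alone gives 1 sample an error of 15.8 points for 10 calls at 50% methylation. PCR reads are not independent molecules, so this error is a minimum. On simulated data the gene test recovered 50% of genes changed by 1 on the log2 scale and 84% of those changed by 2, with 8 unchanged genes called among 18182. The position model recovered 79.5% of changed positions among 40000, and 4.62% of its calls were unchanged.

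Beside the 8 genes, the rule named Dnmt1, annotated genes within 2 kb, the 3 smallest p of each podocyte list, the 5 genes most like Nphs1 (mean log2 CPM of at least 1) and each gene's largest called position. Some of the items it named are not reported here. Genes it named in lists of other cells are given as counts, and Clic5, Col4a4, Tdrd5, Lmx1b and Foxc1 were named after their values were seen. Summed promoter calls and list counts without control 3 were added after seeing the data. Alternatives were DESeq2 1.42.0, limma 3.58.1 voom, a replicate block, other scalings, filters, call minimums, windows, weights and dispersions, and each replicate left out.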

Additional observations from a re-analysis of the deposited data

How the results depend on the processing

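No fold change of the 8 genes changed direction under the 14 alternatives, and 102 of their 112 values kept their side of the threshold. Nphs1, Podxl and Ptpro were lower under every one. The number of the 8 genes called lower was 3 at an adjusted p of 0.01, where Synpo and Wt1 were lost, and 3 to 5 when single libraries were left out. The number called higher was 1 (Cd2ap) with limma voom, and 0 to 1 with single libraries left out. Over all genes, 1493 lower and 1153 higher became 2595 and 2442 with voom, 681 and 528 at an adjusted p of 0.01, and 1296 and 678 with at least 10 counts in every sample. With single libraries left out the ranges were 701 to 2561 and 647 to 2512. Of the other podocyte genes, 23 were lower and 4 higher with voom, 8 and 1 at an adjusted p of 0.01, and 8 to 23 and 1 to 3 with single libraries left out.

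Same-numbered RNA samples had correlations of deviations of -0.236, -0.0653 and -0.124, and those of RRBS samples lay between -0.00517 and 0.00507. No pairing by number was seen in these values. Being deviations from means of 3 samples, they cannot exclude one. With a replicate block 4 of the 8 genes were lower (Wt1 at an adjusted p of 0.0913, edgeR), 128 positions were lower and 3 higher in KO, and 8 and 14 in adults. The paired differences in gene methylation were unchanged in value, with an exact sign-flip p of 0.25 in KO for all 8 genes, the smallest for 3 pairs.

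Of 99 values of KO methylation 98 kept their direction, but sizes moved with the positions used. A minimum of 20 calls gave -15.1 at Nphs1 (4 positions), -12.2 at Podxl (3) and -9.07 at Wt1 (12), and a minimum of 5 gave -10.9 at Synpo (85), -14.1 at Ptpro (46) and -18.3 at Cd2ap (31). Weighted by calls, KO and control overlapped at Podxl (-3.85), Synpo (-3.52) and Ptpro (-6.63), and at Ptpro also with 20 calls (-5.62). Within 1 kb of the annotated start Magi2 was 0.992 points higher in KO, on 4 positions near 0. In adults 6 of 99 values reversed, and weighting by calls gave -8.72 at Nphs1, -13.8 at Ptpro, -7.35 at Plce1 and -5.20 at Magi2, against -1.73, -3.93, -1.06 and -0.934. Nphs1 was 0.298 with only the 6 samples compared, Podxl -0.696 when weighted by calls and Plce1 1.25 within 1 kb of the start. Podxl, at 0.239, ranged from -2.52 to 1.69 with single samples left out, being -0.186 without control 1, -0.426 without control 2 and -2.52 without adult 1. The window at the start could not be used for Podxl, Synpo and Wt1, whose start and strand were not given, nor for a gene with no position in it.

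Positions lower in KO were 72 at a minimum of 25 points of 320 and, at 20 calls, 69 of the 121 then tested (69795 of 134887 over all positions), with 1 higher. With single samples left out, 81 to 163 were lower and 0 to 3 higher in KO, and 3 to 8 lower and 8 to 12 higher in adults. A minimum of 25 points left 3 lower in adults. With no overdispersion 46 were lower and 45 higher in adults. Unmoderated dispersion called 0 in either direction in both contrasts, and it recovered 0% on simulated positions as well. The cause of these shifts was not tested. KO 3, with a median of 4 calls per position, limits which positions could be used.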
